A study of Mus musculus with 19 samples.

Results

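The 1154 regions described here are Smad2/3 binding sites of mouse squamous carcinoma cells that lie in accessible chromatin and have another Smad2/3 site close by. The authors' list holds 6143 sites of 201 bp, each bound in chromatin immunoprecipitation sequencing (ChIP-seq) and holding a motif. A site was taken when it overlapped a peak of the merged ATAC-seq list by at least 1 bp and when the midpoint of at least 1 other listed site lay within 10 kb on the same chromosome. The members were thus chosen by measured values, the positions of ChIP sites and of ATAC peaks. They made up 18.8% of all listed sites and 31.3% of the 3690 sites in accessible chromatin. The other 2536 accessible sites had no listed site within that distance and are called isolated, and 2453 sites overlapped no ATAC peak.

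The study followed cells of skin squamous cell carcinomas (SCC) that divide at different rates, in 19 samples, all labelled C57BL/6. Smad2/3 was mapped in 1 ChIP sample of 12000000 SCC1 tumour cells, grown in culture with 50 uM calcium and given 5 ng/mL TGFβ1 for 1 h. Input DNA of SCC1 and SCC2, from cells given the same ligand, served for copy number. RNA came from 100000 cells per library, sorted from intradermal allografts of SCC1 and SCC2 into quiescent (CD71 low, H2BGFP high), proliferative (CD71 high, H2BGFP low) and double negative (low for both) cells, with 1 library per population and tumour. H2BGFP is a labelled histone that dividing cells dilute, and CD71 is the transferrin receptor. The ATAC list merges peaks over libraries of 50000 sorted cells. Of the 10 ATAC libraries described, those of SCC1 and SCC2 cover the same populations and cells high for both CD71 and H2BGFP, and 2 came from a tumour lacking the TGF-β receptor Tgfbr2 (Tgfbr2KO, SCC3), so a peak of the list need not be open in the cells used for ChIP. The lists carry no height, score or read depth, and with 1 ChIP sample there is no replicate of the binding.

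Smad2 and Smad3 carry the signal of TGF-β to the nucleus. Ligand binding activates a receptor kinase that phosphorylates both proteins, and they join Smad4 and bind DNA at short elements holding the letters CAGAC, usually beside other factors such as AP-1. In keratinocytes TGF-β is known for slowing division and for inducing matrix and feedback genes. Sites that lie close together often belong to 1 regulatory region, and a listed site shows binding and not an effect on a gene.

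A promoter lies at a named gene start, although a site there can lie at the start of another gene as well. RefSeq sequence of build GRCm38.p6 (mm10) was at hand for promoters. The sequences of 8 members at promoters are therefore shown. Each runs 5′ to 3′ along the gene's strand and was cut where it would pass the listed start site. Capitals mark CAGAC (or GTCTG, its other strand) and TGANTCA, the AP-1 motif. The first 6 follow a fixed rule on genes and clusters, and Adgrg1 and Ecm1 were chosen after their values were seen.
Bmf, chr2:118544588-118544750 (- strand): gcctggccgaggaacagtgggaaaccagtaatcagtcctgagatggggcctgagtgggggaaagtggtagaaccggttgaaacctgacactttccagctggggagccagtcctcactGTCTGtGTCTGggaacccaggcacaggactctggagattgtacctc
Gm33122, chr7:129651859-129652038 (- strand): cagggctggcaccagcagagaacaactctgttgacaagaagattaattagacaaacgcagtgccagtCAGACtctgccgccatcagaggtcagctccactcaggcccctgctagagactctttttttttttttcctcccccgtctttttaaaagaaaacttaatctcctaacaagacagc
Ivl, chr3:92573742-92573942 (- strand): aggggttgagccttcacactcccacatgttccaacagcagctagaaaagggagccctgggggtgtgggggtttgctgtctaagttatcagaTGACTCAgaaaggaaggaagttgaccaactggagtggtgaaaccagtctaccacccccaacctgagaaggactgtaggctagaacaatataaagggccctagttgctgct
Fancb, chrX:164980342-164980540 (+ strand): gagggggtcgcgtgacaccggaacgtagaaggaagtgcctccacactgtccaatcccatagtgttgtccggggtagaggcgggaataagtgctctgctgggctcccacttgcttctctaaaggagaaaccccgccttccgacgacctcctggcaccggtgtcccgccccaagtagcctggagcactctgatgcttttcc
Cdca3, chr6:124830053-124830175 (+ strand): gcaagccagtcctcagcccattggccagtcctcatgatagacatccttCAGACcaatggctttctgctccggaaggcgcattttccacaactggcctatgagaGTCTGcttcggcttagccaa
A230028O05Rik, chr16:25059389-25059514 (+ strand): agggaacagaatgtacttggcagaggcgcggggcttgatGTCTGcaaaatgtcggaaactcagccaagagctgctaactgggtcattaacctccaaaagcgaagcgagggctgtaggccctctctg
Adgrg1, chr8:94984238-94984398 (+ strand): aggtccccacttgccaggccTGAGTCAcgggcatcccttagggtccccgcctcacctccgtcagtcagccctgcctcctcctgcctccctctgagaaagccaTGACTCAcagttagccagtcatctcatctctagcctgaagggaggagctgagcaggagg
Ecm1, chr3:95739570-95739725 (- strand): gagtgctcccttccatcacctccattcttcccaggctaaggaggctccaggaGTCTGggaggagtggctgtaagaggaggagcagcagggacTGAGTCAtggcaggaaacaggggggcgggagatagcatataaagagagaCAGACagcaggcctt

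The stretch of Bmf, which encodes a BH3-only protein of the apoptosis pathway, held 2 matches to CAGAC on the other strand, 1 base apart. Cdca3, a cell division gene, held 2 CAGAC matches, 1 on each strand. Ivl encodes involucrin, a protein of the cornified envelope of differentiating keratinocytes, and its member held 1 TGANTCA and 0 CAGAC. Adgrg1, an adhesion G protein-coupled receptor gene, held 2 TGANTCA and 0 CAGAC. At Ecm1, which encodes an extracellular matrix protein, the stretch held 2 CAGAC and 1 TGANTCA. Fancb, a gene of the Fanconi anaemia core complex, held neither. Its member also lies at the start of Mospd2, with the centre at -65 bp from that start and -152 bp from that of Fancb. The member at Ivl also lies at the start of Gm35639, with the centre at 21 bp from that start and -107 bp from that of Ivl. Negative distances are upstream. The stretches of Bmf, Gm33122, Cdca3, Adgrg1 and Ecm1 lie wholly inside the RefSeq span of their gene, which reaches beyond the start used here, and 49 bases of Ivl and 61 of Fancb do so. That of A230028O05Rik, a gene of unknown function, lies outside its span. Whether these bases are exonic or intronic was not analysed here.

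In all, 58 members from 57 clusters overlapped a promoter window of 69 genes, which runs from 250 bases before to 50 after a start, and 18 members lay wholly inside one. The letters of 5 motifs were searched on both strands in these 18 members of 201 bases. CAGAC was present in 9 of 18 (50.0%, exact 95% interval 26.0 to 74.0), in 31 of 55 isolated sites wholly inside a window (56.4%) and in 33.5% of the 11516 accessible promoter windows of the same length. TGANTCA was present in 5 of 18 members (27.8%, 9.69 to 53.5), in 7 of 55 isolated sites (12.7%) and in 4.42% of accessible windows. Of the 21 sites outside ATAC peaks that lay wholly inside a window, 5 held TGANTCA (23.8%, 8.22 to 47.2). That share is close to the one of members, and 6 of these 21 sites held CAGAC (28.6%). The members with TGANTCA were those at Ivl, Ecm1, Adgrg1, Gm33607 and Gm36199, and the one at Ecm1 held CAGAC as well. GGCGC, a GC-rich Smad element, was in 7 of 18 members and in 54.5% of accessible windows, CANNTG, the E-box, in 12 of 18 and 46.9%, and GGAATG, the TEAD motif, in 0 of 18 and 7.29%. Over all 32506 distinct windows the shares were 35.6% for CAGAC, 5.57% for TGANTCA, 29.8% for GGCGC, 58.4% for CANNTG and 10.05% for GGAATG. The listed sites had been required to hold a motif, which the sources used here do not name, so these shares are a description. The intervals of members and isolated sites overlap for every motif. The median GC content of the 18 members was 58.7%, against 62.2% in accessible windows.

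Some microRNA genes lay beside members. Of 1005 hairpins in the RefSeq table, 17 had a member within 10 kb and 6 had 2 or more. Of 21900 protein-coding genes, 659 (3.01%) had a member in the gene body or within 10 kb, and 308 (1.41%) had 2 or more. A hairpin is far shorter than a typical protein-coding gene (median 17146 bp), so its window is smaller. The counts for hairpins and for genes are therefore not alike, and no difference was tested. Mir205 lies beside 1 of the clusters with the most members, 831 bp from the nearest of the 2 members within 10 kb of it, and miR-205 is an epithelial microRNA abundant in stratified epithelia such as skin. Mir21a, a microRNA raised in many tumours, and Mir34a, a p53-induced one, had 1 member each, at 3177 and 8081 bp, and were picked after the values were seen. Their mature sequences are shown with the seed, bases 2 to 8, in capitals.
mmu-miR-205-5p, Mir205, chr1:193507503-193507524 (- strand): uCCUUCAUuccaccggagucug
mmu-miR-205-3p, Mir205, chr1:193507467-193507488 (- strand): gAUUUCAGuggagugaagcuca
mmu-miR-21a-5p, Mir21a, chr11:86584120-86584141 (- strand): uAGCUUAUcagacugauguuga
mmu-miR-21a-3p, Mir21a, chr11:86584082-86584103 (- strand): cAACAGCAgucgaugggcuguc
mmu-miR-34a-5p, Mir34a, chr4:150068473-150068494 (+ strand): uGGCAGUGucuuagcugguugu
mmu-miR-34a-3p, Mir34a, chr4:150068517-150068537 (+ strand): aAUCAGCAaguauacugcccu
The 6 seeds differ from each other. Levels of these microRNAs were not analysed here.

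Members lay in 711 clusters, where a cluster chains listed sites whose midpoints follow each other within 10 kb. The list gave 914 such clusters in all, with 2208 sites, and 203 of them had no site in accessible chromatin. In 350 clusters 1 listed site was a member, in 291 clusters 2 were, in 60 clusters 3, in 8 clusters 4 and in 2 clusters 5. In 274 clusters every listed site was accessible. A cluster with a member spanned a median of 5837 bp and 90% of them at most 13340 bp, and the longest spanned 74315 bp. Of listed sites near another one, 52.3% of 2208 (50.2 to 54.4) were accessible, and of those standing alone 64.4% of 3935 (62.9 to 65.9). The intervals do not overlap, and the values are a description, since both properties enter the rule. These and the following intervals are exact binomial 95% intervals. They cover counting error only, and since sites of 1 cluster are neighbours they are too narrow.

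The nearest listed site of a member lay at a median of 3930 bp, and that site was itself accessible for 687 of 1154 members (59.5%). A distance under 1 kb was seen for 63 members, under 2 kb for 267 and under 5 kb for 724. Only 24 members shared an ATAC peak with their nearest site, so neighbouring sites mostly sat in separate peaks or outside any peak. The 10 kb limit does not fall in a gap of the distances, since the 3 members closest to it had a neighbour at 9953, 9992 and 9992 bp and the 3 isolated sites closest to it at 10009, 10009 and 10017 bp. In the plot of spacing members are most frequent at 1 to 2 kb, with 204 members, and less frequent both nearer and farther, with 4 under 0.5 kb and 79 at 9 to 10 kb. Few clusters hold more than 2 members.

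**Figure D1:**
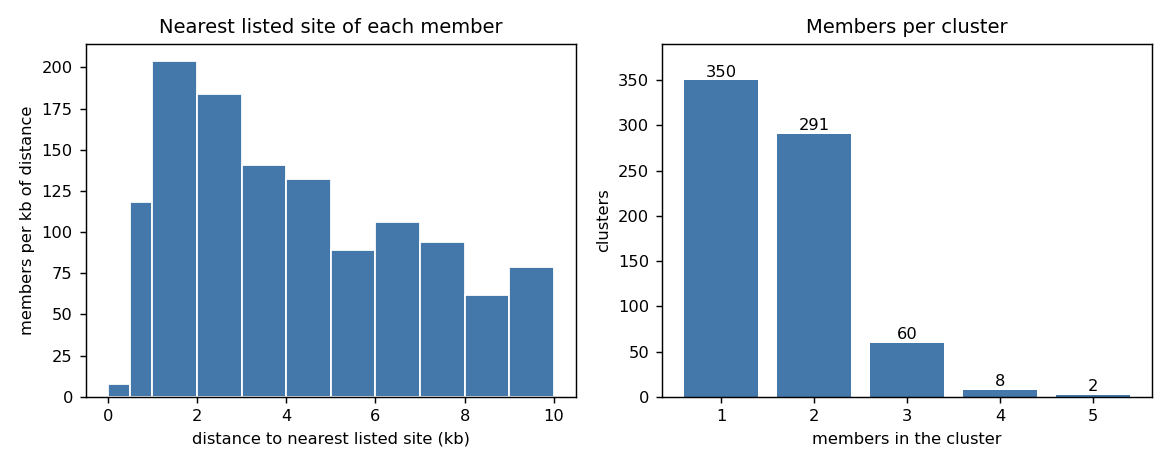
Left, members per kb of distance to the nearest listed Smad2/3 site, up to the 10 kb limit of the rule, in bins of 0.5 or 1 kb. Right, number of clusters by how many members they hold: 350 clusters hold 1 member, 291 hold 2, and 70 hold 3 or more.

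The cluster at Osgin1 on chromosome 8 (119423765 to 119440410) had 5 listed sites, all 5 members. They overlapped different ATAC peaks, some of them only by an end, with the midpoint outside any peak. Over all members the midpoint lay inside a peak for 1089 of 1154. Osgin1 is named for its induction by oxidative stress, and the sites ran from outside the gene into its body, across Gm32006, with Mlycd and Necab2 also within 10 kb. The other cluster with 5 members, on chromosome 16 (25042003 to 25059514), lay over no gene, and its last site was in the promoter window of A230028O05Rik. On chromosome 9 (31684619 to 31691403), 4 members fell in 6785 bp with no RefSeq gene within 10 kb, inside a region called at 3 copies in SCC1. The shortest of the others with 4 members, 7743 bp long, lay in Ptpre, which encodes a protein tyrosine phosphatase, and 1 of its members also lay in 5830432E09Rik.

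A cluster of 4 members on chromosome 9 (122097561 to 122110823) had Snrk, a gene of an SNF1-related kinase, as the only gene within 10 kb. On chromosome 7, 4 members (129651838 to 129666008) ran across the predicted genes Gm33122, Gm51499 and Gm39094, and their first site is the Gm33122 stretch printed above. The cluster at Mir205hg, the host transcript of Mir205, held 4 members in 14210 bp on chromosome 1 (193508261 to 193522470). A cluster on chromosome 8 (36172427 to 36187241) had 4 members, 1 of them in Gm39164. Another, with all 4 members in Myo1e, which encodes a class I myosin, lay on chromosome 9 (70242550 to 70260726). At Zfhx3, a zinc finger homeobox gene, 4 of 6 listed sites were members, in 23050 bp (chromosome 8, 108743227 to 108766276), and the 2 sites in the middle overlapped no ATAC peak. Of these 10 clusters, 9 had every listed site accessible and 1 lay in an SCC1 gain.

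**Figure D2:**
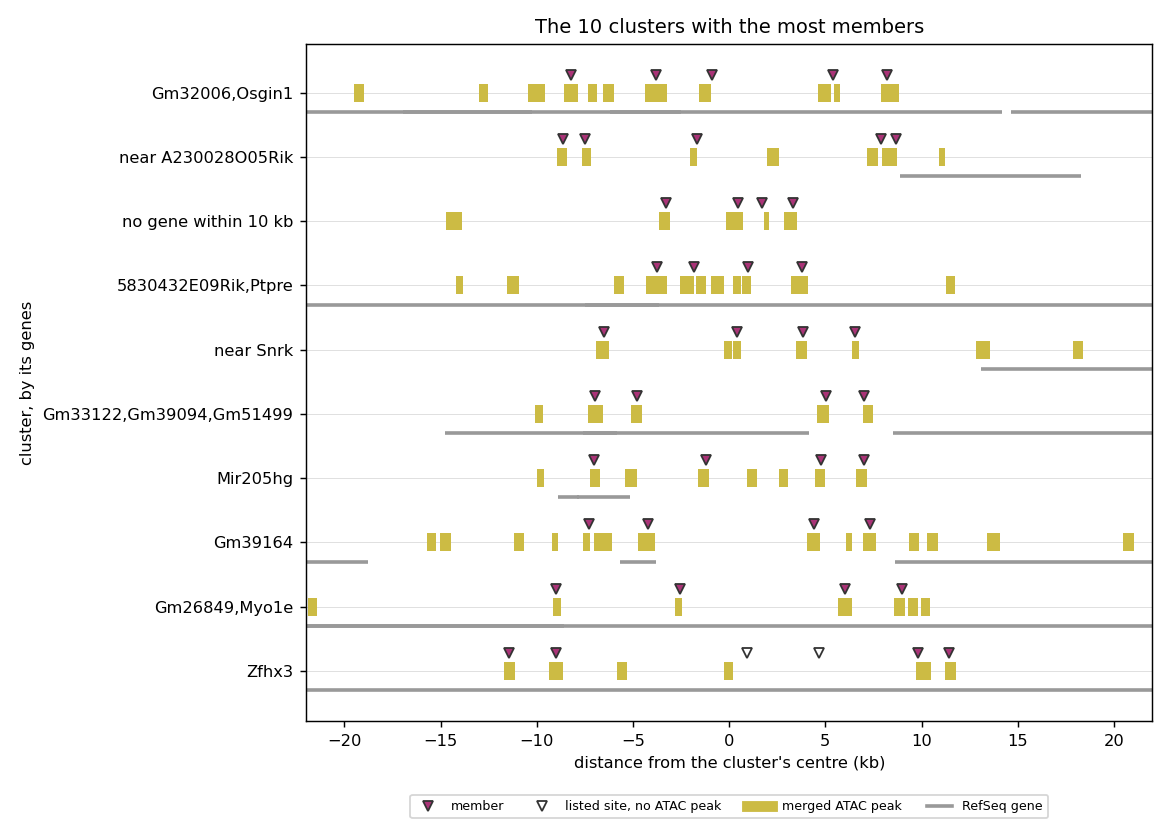
Maps of the 10 clusters with the most members, drawn to scale as distance from the cluster's centre in kb. Filled triangles are members, open triangles listed sites outside ATAC peaks (2 at Zfhx3), bars merged ATAC peaks and grey lines RefSeq genes. In 9 of the 10 maps every triangle is filled.

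Clusters with the most listed sites were not those with the most members. Fbln2, which encodes the matrix protein fibulin-2, had 17 listed sites over 74315 bp and 3 members. Trim29, an epithelial gene of the tripartite motif family, had 9 sites and 3 members. Ahnak, Adgrg1 and Smad7 had 7 listed sites and 2 members each. Among single genes, counted over the gene body and 10 kb on either side, Osgin1, Aff1 and Arhgap10 had the most members, with 5 each.

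More ATAC peaks lay around members than around isolated sites, and much of that difference went with peaks that hold another listed site. At least 2 other ATAC peaks lay within 10 kb of 60.8% of members (57.9 to 63.7), 33.3% of isolated sites (31.5 to 35.2) and 31.3% of all 61553 ATAC peaks. The rule favours this, because an accessible neighbour brings its own peak. Counting only peaks free of any listed Smad2/3 site, the shares were 37.8% of members (35.0 to 40.7), 33.3% of isolated sites (31.4 to 35.2) and 27.4% of sites outside ATAC peaks. The first of these intervals overlaps the second. The peak under a site was a little narrower for members, with a median of 600 bp against 650 bp for isolated sites and 550 bp over all ATAC peaks. The 1142 peaks with a member were 1.86% of the merged list, and 12 of them held 2 or more members.

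Fewer members than isolated sites lay right at gene starts, while the median distance to a start was shorter for members, with 14890 bp against 17182 bp. For sites outside ATAC peaks that median was 15043 bp, close to that of members. Of the 1105 members on chromosomes with start sites in the RefSeq table, 9.14% (7.51 to 11.0) were within 1 kb of a start, against 14.2% of isolated sites (12.8 to 15.6), 7.38% of sites outside ATAC peaks and 17.4% of all ATAC peaks. Within 10 kb the shares were 39.4% of members and 37.9% of isolated sites. Within 50 kb members and sites outside ATAC peaks lay close together, with 84.0% (81.7 to 86.1) and 83.0% (81.5 to 84.5). The share there was 78.0% for isolated sites and 72.0% for all peaks. The table does not hold every gene's start, so a distance is to the nearest start in it. Members inside a protein-coding gene made up 54.5%, close to the 52.2% of isolated sites, and those intervals overlap.

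In SCC1, the tumour used for ChIP, 37.4% of members (34.6 to 40.3) lay in a called gain and 0.347% in a loss, against 35.9% (34.1 to 37.8) in a gain for isolated sites, 41.1% for sites outside ATAC peaks and 31.1% for all ATAC peaks. In SCC2, which had no ChIP, gains held 35.3% of members and 30.5% of all ATAC peaks. In SCC1 the share of members was above that of all ATAC peaks beyond its interval, and the intervals of members and isolated sites overlapped. The part of copy number in the listing of sites was not tested. By chromosome, members were 37.5% of the 360 accessible sites on chromosome 8, with 135 members, and 13.9% of the 36 on chromosome 14 (4.67 to 29.5), with 5. The shares on the other autosomes lay between 23.6% and 36.4%, and chromosome X had 4 members of 26 accessible sites.

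**Figure D3:**
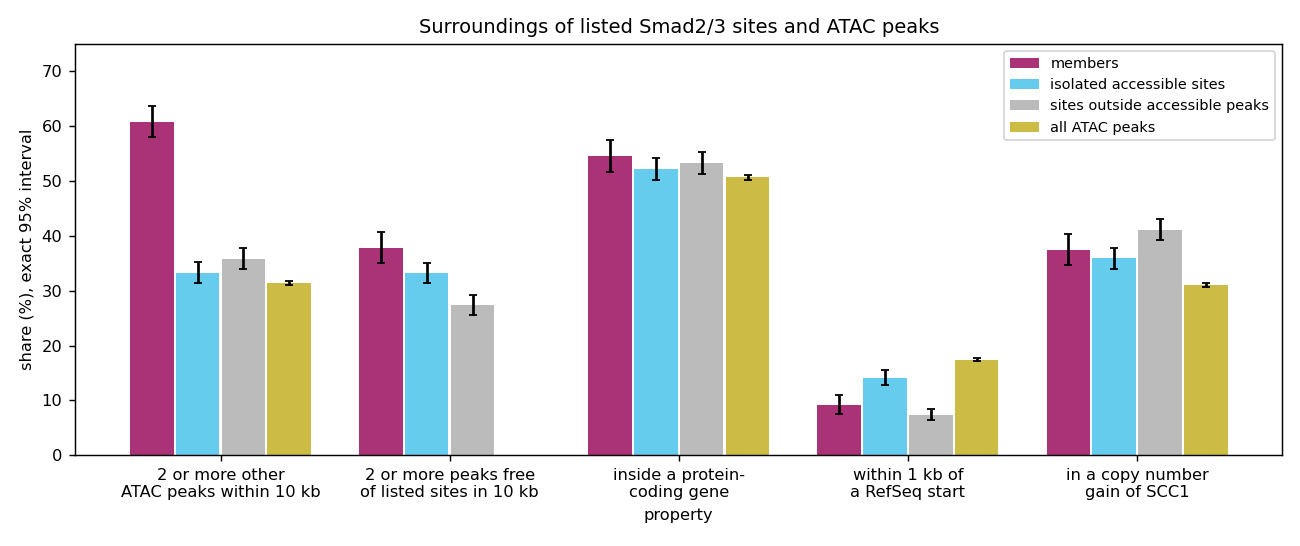
Share in percent, with exact 95% intervals as bars, of members, isolated accessible sites, sites outside accessible peaks and all ATAC peaks with each property. Members reach 60.8% for 2 or more other ATAC peaks within 10 kb and 37.8% once peaks with listed sites are left out, a count not made for all ATAC peaks.

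Genes were then read by their role. A gene counted when at least 2 members lay in its body or within 10 kb of it, which 308 of 21900 protein-coding genes did (1.41%). These genes were long, with a median length of 42826 bp against 17146 bp for all protein-coding genes. Of 48 genes of the TGF-β and Smad pathway 4 counted (8.33%), namely Tgfb1, Smad7, Pmepa1 and Nedd4l, and the median length of that list was 48861 bp. Among 53 TGF-β target genes 7 did (13.2%), among them the first 3 of these and Id1, Itgb6 and Neat1, with a median list length of 16819 bp. Of 44 keratinocyte and junction genes 7 did (15.9%), with a median length of 14936 bp. Zfp36 was the 1 of 26 AP-1 and immediate early genes, Gadd45g the 1 of 21 cell cycle inhibitors, Actn1 the 1 of 34 Hippo and cytoskeleton genes and Tk1 the 1 of 39 mitosis and replication genes. None of 30 glutathione and NRF2 genes, 28 hair follicle stem cell and Wnt genes and 33 squamous carcinoma drivers and Ras genes had 2 members. Isolated sites without a member, which may be 1 site per gene, also reached these lists. They lay at 10 of the 44 keratinocyte and junction genes, 13 of the 53 targets and 10 of the 48 pathway genes. Of the 30 glutathione and NRF2 genes 7 had them. The share of all protein-coding genes with isolated sites alone is not given here. These lists were drawn up with results of these data known, so the shares are descriptions.

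Distances of members to genes are given here and below from the midpoint of the site. Tgfb1 encodes the ligand given to the cells. Its 3 members lay outside the gene, 2 of them 6658 and 6132 bp from its body and 526 bp apart, in 1 ATAC peak of 900 bp and next to the start of B9d2, and the third 6753 bp past the other end. Smad7 and Pmepa1 encode feedback inhibitors of the pathway. At Smad7, 2 of 7 listed sites were members, 1 at the edge of the gene, 227 bp outside, in a peak of 1200 bp, and 1 inside. Pmepa1 had 3 members inside the gene, 2021 and 2765 bp apart, of 6 listed sites. Nedd4l, a ubiquitin ligase that targets activated Smad2/3, had 2 members inside the gene, of 6 listed sites.

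Id1, which encodes a helix-loop-helix inhibitor, is only 1160 bp long. Of its 5 listed sites 3 were members, 1 inside the gene, 1 at 1095 bp and 1 at 4334 bp, in peaks of 600 to 850 bp. Itgb6 encodes the β6 chain of the integrin αvβ6, which releases latent TGF-β, and had 3 members inside the gene. Neat1, a long non-coding RNA, had 2 members outside it, at 6551 and 3224 bp, 1 on each side.

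Among junction genes, Dsp, the desmoplakin gene, had 3 members inside the gene, of 4 listed sites. Pkp1, the plakophilin-1 gene, had 3 beyond 1 end, at 2631, 7393 and 9051 bp. Dsg3, the desmoglein-3 gene, had 2, 1 of them with its midpoint 79 bp outside the gene and its end inside. Cdh3, the P-cadherin gene, had 2 outside the gene, at 4568 and 7159 bp. Notch2, a receptor in keratinocyte differentiation, had 2 inside the gene, and Ivl had 2, with midpoints 52 and 5959 bp outside it. The nearer member of Ivl overlaps the gene and is printed above. Another 5 genes of the list, Ovol1, Jup, Lamb3, Col17a1 and Perp, had 1 member each.

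**Figure D4:**
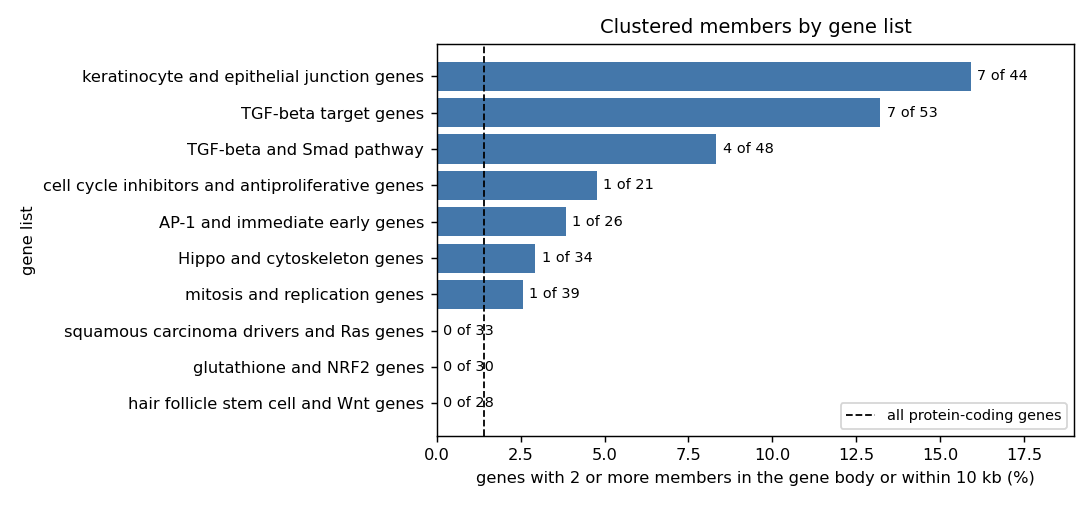
For each gene list, the percent of genes that had 2 or more members within 10 kb of the gene body or in it, with the counts beside the bars. The dashed line is the 1.41% of all protein-coding genes, and the 3 longest bars are the keratinocyte and junction genes, the TGF-β targets and the TGF-β and Smad pathway.

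The expression table allowed a look at genes with clustered sites in sorted tumour cells. It is the authors' list of differentially expressed genes, so shares over all its genes are not shares over all expressed genes. It holds log2 ratios for 1609 genes, 1 per tumour and pair of populations, and no levels, q-values or depth, so no test was made and the sorted cells could not be checked against levels of keratinocyte markers, of which the table holds 1 of 9, Epcam. Direction was counted when both tumours had the same sign. In bulk libraries fewer cells of a type and less RNA per cell cannot be told apart. Of the 1600 genes matched to RefSeq, 40 had at least 2 members, from 42 clusters, with Fads1 and Fen1 sharing one.

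In the authors' deposited table, 23 of these 40 genes were higher in quiescent than in proliferative cells in both tumours, 14 were lower and 3 differed in sign. The higher share was 57.5% against 35.9% of all 1600 genes, and the lower share 35.0% against 52.2%. For SCC1 the authors' deposited table gave these genes a median log2 ratio of 0.66, against -0.61 over all genes, and for SCC2 it gave 0.62 against -0.50. The 40 genes with 1 member were higher in 55.0%, the 174 with isolated accessible sites alone in 44.8%, and the 1258 with no listed site in 33.6%. The shares for 2 or more members and for 1 member lay close together. The 23 genes with 2 or more isolated sites and no member were higher in 43.5%. Sizes of at least 1 on the log2 scale in both tumours were reached upward by 8 of the 40 (11.4% of all genes) and downward by 8 (23.2% of all genes). Of the 40 genes, 18 lay in an SCC1 gain, and of all genes 45.1% did. Among the 21 in no SCC1 copy number call, 10 were higher and 10 lower (47.6% each), against 31.8% and 56.7% of all 855 such genes of the table.

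Double negative cells were compared with the same proliferative libraries, so the 2 comparisons share them. There 25 of the 40 genes were higher (62.5%, against 42.6% of all genes) and 12 lower (30.0%, against 51.1% of all genes). Between quiescent and double negative cells, 7 were higher (17.5%, against 16.4% of all genes) and 9 lower (22.5%, against 29.9% of all genes). The other 24 differed in sign between the tumours. Sizes of at least 1 in both tumours were reached by 8 of the 40 genes upward and 4 downward in double negative against proliferative cells. Of all genes, 15.6% and 25.2% did so. In quiescent against double negative cells such sizes were reached by 1 of the 40 upward and 1 downward, against 1.25% and 2.12% of all genes.

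Bmf had the highest ratio by the tumour with the smaller change, where the authors' deposited table has 3.01 for SCC1 and 2.28 for SCC2 in quiescent against proliferative cells. Id1 followed, with 2.93 and 1.90 in the authors' deposited table. The authors' deposited table gave 1.72 and 2.35 for Rnf122, a RING finger ubiquitin ligase gene. All 3 were higher in both tumours, and against the same proliferative libraries the double negative cells gave 2.44 and 2.76 for Bmf and 1.93 and 1.30 for Id1 in the authors' deposited table. In the authors' deposited table Sorcs2, a sorting receptor gene of 381018 bp with 4 members and 15 listed sites, had 1.38 and 1.21. Pmp22, a membrane protein gene, had 1.04 and 2.30, and Gadd45g, a growth arrest gene, 1.04 and 1.40, in the authors' deposited table. Pisd-ps1 had 1.16 and 1.62 in the authors' deposited table, but as a pseudogene it may share reads with its parent gene.

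On the other side, the authors' deposited table has -4.38 for SCC1 and -1.72 for SCC2 at Cdca3 and, for Tk1, the thymidine kinase of DNA synthesis, -3.46 and -1.35. Fancb had -2.84 and -1.69 there, per the authors' deposited table. These 3 genes serve division or the copying and repair of DNA, and at Cdca3 and Fancb a member overlaps the promoter, as printed above. The member at Fancb also lies at the start of Mospd2, so it cannot be assigned to Fancb alone. In the authors' deposited table Syne3, a nuclear envelope gene, had -1.39 and -2.21, Chst3, a chondroitin sulfotransferase gene, -1.60 and -1.22, Lss, the lanosterol synthase gene, -1.22 and -1.97, and Fads1, a fatty acid desaturase gene, -1.004 and -1.34. Gm15056, a predicted gene, is listed at exactly -12 in both tumours of the authors' deposited table, a size that 16 of its genes share in both, and this gives no fold.

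Of the list genes not yet given, the authors' deposited table gave Tgfb1 1.44 for SCC1 and 0.08 for SCC2, Zfp36, which encodes an RNA decay factor, 1.49 and 0.85, and Actn1, the α-actinin gene, -0.37 and -1.15. Smad7, Pmepa1, Nedd4l, Itgb6, Dsp, Dsg3, Pkp1, Cdh3, Notch2, Ivl and Neat1 are not among the genes of the table, and their direction was not analysed here. Across protein-coding genes, 271 of those with 2 or more members are not in it either.

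Markers of other cell types had high ratios in SCC2. For 8 fibroblast markers the authors' deposited table has a median of 0.18 for SCC1 (-0.43 to 2.75) and of 4.61 for SCC2 (2.54 to 5.38). The medians of 5 myeloid markers there, again from the authors' deposited table, were -0.13 and 2.87, and those of 2 endothelial markers -0.72 and 1.82. Epcam, the 1 keratinocyte marker, had -3.21 and -0.40 in the authors' deposited table. None of these markers had 2 or more members, and their part in the ratios of the 40 genes was not tested. In SCC1 alone 24 of the 40 genes were higher, against 38.5% of all genes, and in SCC2 alone 25 (62.5%, against 45.1%).

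**Figure D5:**
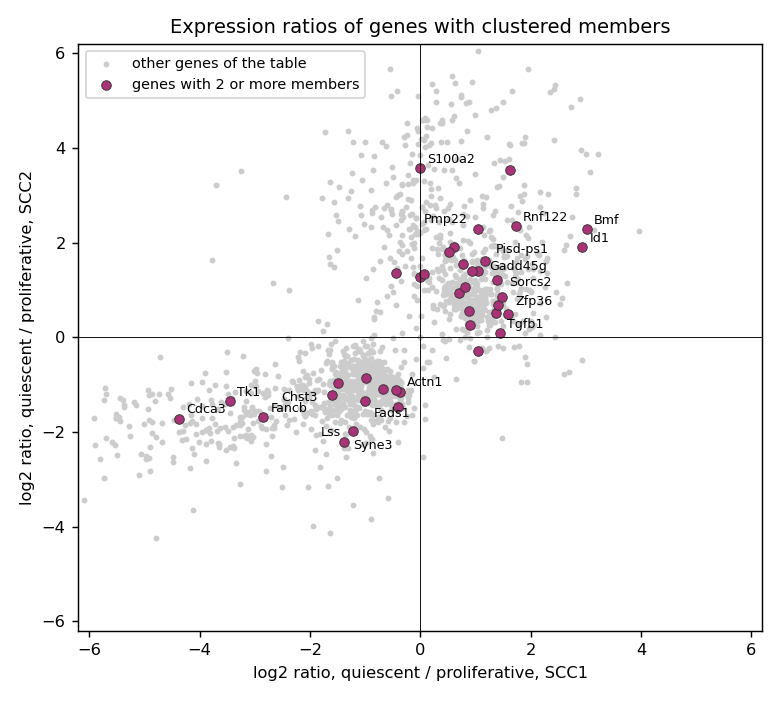
Log2 ratio of quiescent over proliferative cells in SCC1 (x axis) and SCC2 (y axis) from the authors' deposited table, for genes with 2 or more members (large points) and all other genes (grey), with values beyond the axes, Gm15056 among them, not drawn. Of the 40 genes 23 lie to the upper right of both zero lines and 14, Gm15056 included, to the lower left.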

How the data were processed

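The authors deposited 2 position lists (other than counts or signal): Smad2/3 sites with a motif, from 1 ChIP sample, and ATAC peaks merged over libraries. Per the submitters' processing notes, mm10 was used, with Bowtie for ChIP and ATAC and Picard 1.88 for ChIP, and TopHat2 2.0.9, Cufflinks 2.2.0 and Cuffdiff 2.2.0 for RNA, where mm9 is also named for double negative cells. The sources used here name neither the peak caller nor the motif. The authors deposited expression as log2 ratios between populations of 1 tumour, without levels and only for genes listed as differentially expressed. Copy number was deposited as whole copies per called region. The scaling and depth of both are unknown.

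Midpoints, overlaps of at least 1 bp and gene windows of 10 kb were computed with Python 3.11.15, numpy 2.4.6, pandas 2.3.3 and scipy 1.17.1, after the functions were tested on simulated data. Figures used matplotlib 3.10.9. Genes, start sites and sequences came from RefSeq tables of GRCm38.p6, the assembly of mm10, and of 1609 expression genes 1600 matched, 1492 by symbol and 108 by a synonym. The members, the gene lists and the rules were chosen with earlier results of these data known. Named were the 10 clusters with the most members, every list gene with at least 2 members, and the 8 highest and 8 lowest genes of the expression table with at least 2 members, ranked by the smaller size over the tumours among genes of 1 sign. No test was run, since binding has 1 sample and each ratio 1 library per arm. Alternatives changed the distance, the overlap, the gene window and the tumours used. Mutation calls were not used here, and some genes that the rules would name are not reported here.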

Additional observations from a re-analysis of the deposited data

Results flagged for a closer look

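Of the 40 table genes with 2 or more members, 3 had opposite signs in the tumours, each with 1 library per population, and the difference between tumours was not tested. In the authors' deposited table, S100a2, a gene of the S100 calcium-binding family, had a log2 ratio of quiescent over proliferative cells of -0.0059 in SCC1 and 3.57 in SCC2. Psmb10, an immunoproteasome subunit gene, had -0.45 and 1.37 in the authors' deposited table. Sspn, which encodes sarcospan, had 1.04 and -0.30 in the authors' deposited table.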

How the results depend on the processing

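No paired analysis was possible because no test was run to which a block could be added. Each ratio is a difference within 1 tumour, so the count of genes with the same sign in both tumours is itself a paired reading. Requiring midpoints within 5 kb left 724 members, and requiring an accessible neighbour left 761 members in 344 clusters. Within 20 kb there were 1627 members. The other distance, overlap and merging alternatives kept the number of members and of clusters, the median peak width and the share in SCC1 gains within 1.5 times or within the interval of the value reported. Of the 40 genes, 23 were higher and 14 lower. Counting gene bodies alone gave 10 higher and 7 lower of 18, and 50 kb on either side gave 46 and 38 of 92. Sizes of at least 1 on the log2 scale gave 8 and 8. Genes in no SCC1 copy number call gave 10 higher and 10 lower of 21 (47.6% each), against 31.8% and 56.7% of the 855 such genes in the table, so the count of higher genes no longer exceeded that of lower ones. Leaving out 1 tumour gave 24 to 25 higher and 15 to 16 lower. Depth is unknown, so sites missed by the ChIP list cannot be told from absent ones.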
